A study of Mus musculus with 10 samples.

Results

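Kinesin, tubulin, centromere, condensin and cohesin genes were followed through resting, activation and division of mouse B cells. The members were all gene symbols of the deposited table that begin with Kif and a digit or c, with Tuba, Tubb or Tubg, with Cenp, with Ncap, or with Smc1 to Smc6. The rule found 34 of 6610 genes, held by 47 transcripts, and 29 of the 34 passed the filter on low values (at least 1 TPM in at least 2 of 10 libraries) and were tested. By textbook function 7 members were classed as mitotic: the kinesins Kif18a and Kif23, the centromere genes Cenpf, Cenpk and Cenpq, and the condensin genes Ncapg2 and Smc4. The class of interphase transport held 6 kinesins, of which Kif5b and Kif1c were tested. The other 21 members (8 alpha and beta tubulins, 5 genes of the gamma tubulin complex, 3 cohesin subunits, Cenpj, Cenpv, Kif2a, Kif24 and Kif28) were placed in neither class and were kept as a class of their own. Some of them have known roles in mitosis too, as given below for Cenpv and Kif2a. Neither of these 2 was called in a comparison with naive by gene sum, so the mitotic counts depend in part on the placing. Other kinesin, CENP and condensin genes were not analysed here.

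The libraries came from splenic B lymphocytes of C57BL/6 mice, an inbred laboratory strain, in 5 groups of 2. Naive cells were resting and not activated. Activation in Phase I was a pulse with antibodies to IgM, the antigen receptor, and to the co-receptor CD40, which after 48 h gave an undivided group, div0, and a divided group, div12. For Phase II, div12 cells were kept 48 h more in 0.12 µg/ml of antibody to CD40, and flow sorting gave an undivided group, div12_48_u, and a group that divided again, div12_48_d. The title names survivin, a partner of the mitotic Aurora B kinase, but no group carries a genetic change or an inhibitor per the labels. Phase I replicates are pools of 4 to 5 mice and are called independent. For Phase II the labels give no pool, so the spread between those libraries may be technical. The p-values there rest on a spread pooled over the replicates of all groups, naive included, and not on the Phase II libraries alone. Phase II RNA was isolated from a smaller number of cells, so phase, culture time, cell input and sort cannot be told apart.

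Kinesins are motor proteins that walk on microtubules or take them apart. Some build the spindle and the bridge between daughter cells in mitosis, and others carry vesicles and organelles in interphase. Microtubules are polymers of alpha and beta tubulin that grow from rings of gamma tubulin at centrosomes. In mitosis condensin compacts the chromosomes, cohesin holds sister chromatids together, and CENP proteins assemble the kinetochore on which the microtubules pull. Many mitotic genes are known to be transcribed late in the cell cycle, in G2 and M, whereas resting lymphocytes sit outside the cycle.

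Values are TPM, which are scaled by transcript length and to a fixed total within the listed transcripts, so sequencing depth is unknown. Fold changes are log2(TPM + 1) ± SE from limma, which understates the change of low genes, and a gene is said to be higher or lower where the Benjamini-Hochberg adjusted p, two-sided over 4427 genes, was under 0.05. The 8 B cell markers in the table summed to 38349 to 72067 TPM in every library. Naive libraries stood apart: 6 erythroid markers summed to 34.9 to 75.1 TPM in the cultured groups, against 2790.1 to 3337 TPM in naive, 12 myeloid markers to 88.5 to 303 TPM in the cultured groups, against 802 to 2396 TPM in naive, and 33 to 65 genes differed more than 2-fold between replicates of a cultured group, against 340 between the naive replicates. What such cells contribute to the comparisons with naive was not tested. In bulk RNA, fewer cells of a type and less RNA per cell cannot be told apart. TPM is also relative, and over all genes tested the median log2 fold change against naive was -0.24 for div0 and -0.35 for div12, moved by median-ratio scaling to -0.03 and -0.04. Calls against naive that this scaling or quantile normalization ended are named below.

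All 6 called mitotic risers shared 1 order of levels at its ends. Kif18a, Kif23, Cenpf, Cenpk, Ncapg2 and Smc4 each had their highest mean in div12 and their lowest in naive, with div12_48_u next to lowest. These 6, the mitotic risers, are those called higher than naive, so their lowest place in naive follows in part from that choice. The share of all genes with this order was not counted. Cenpq was the exception, with its highest mean in naive. Both tested transport kinesins, Kif5b and Kif1c, also had their highest mean in naive, although naive and div0 overlapped for Kif1c. Summed over the class, mitotic members came to 324 and 302 TPM in naive, 634 and 736 TPM in div0, 959 and 872 TPM in div12, 491 and 405 TPM in div12_48_u, and 715 and 678 TPM in div12_48_d. The transport class summed to 251 and 245 TPM in naive, 183 and 182 TPM in div0, 174 and 159 TPM in div12, 187 and 170.1 TPM in div12_48_u, and 161 and 168 TPM in div12_48_d.

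**Figure D1:**
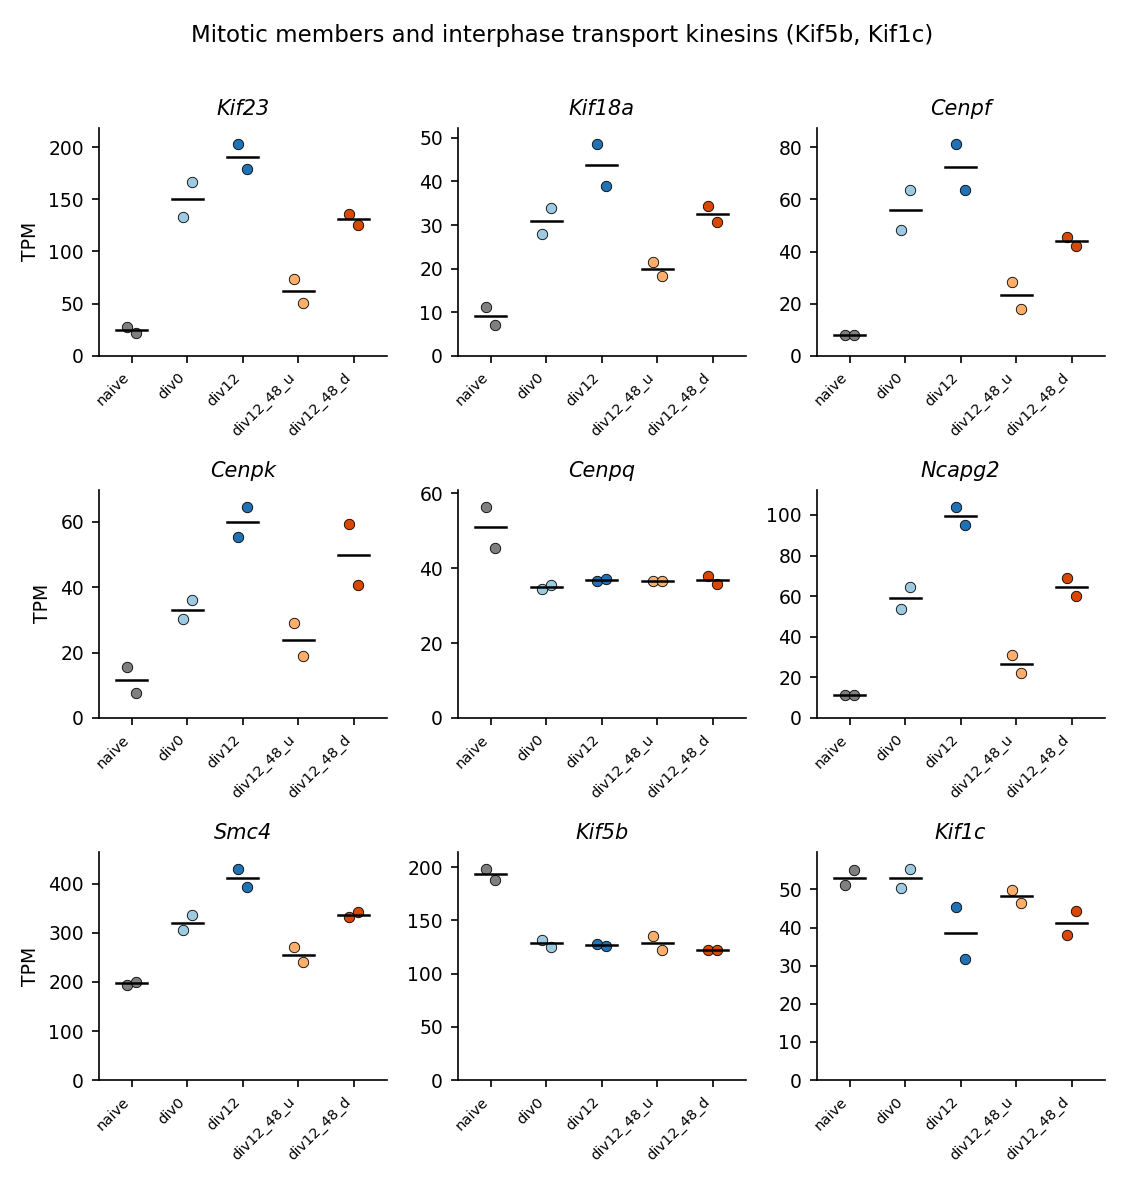
TPM (vertical axes, from 0) of the 7 mitotic members and the 2 tested transport kinesins in the 5 groups (horizontal axes); points are libraries and bars group means (n = 2). Kif23, Kif18a, Cenpf, Cenpk, Ncapg2 and Smc4 peak in div12 and are lower in div12_48_u than in div12_48_d, whereas Kif5b lies between 122 and 135 TPM in all 8 cultured libraries.

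The stretch around the start of transcription is shown for 4 of the mitotic risers, which were picked because they hold short elements known from cell cycle promoters, and for the transport kinesin Kif1c, which holds none of them. The sequences run from 60 bases before to 10 bases after the start in the RefSeq promoter entry (build GRCm38.p6), on the strand of the gene. That start need not be the outer end of the gene, and the stretches of Kif1c and Ncapg2 lie within the spans of their genes. For Kif23 the bases after that start were not matched to a GENCODE transcript of the gene. Capitals mark a cell cycle homology region, TTTGAA, and, read on the other strand, a CCAAT box and E2F-type sites.
Kif23 (chr9:61946790-61946859, minus strand): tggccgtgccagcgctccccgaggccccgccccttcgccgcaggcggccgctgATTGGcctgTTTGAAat
Cenpf (chr1:189688077-189688146, minus strand): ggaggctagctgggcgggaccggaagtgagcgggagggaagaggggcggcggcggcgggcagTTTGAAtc
Ncapg2 (chr12:116405376-116405445, plus strand): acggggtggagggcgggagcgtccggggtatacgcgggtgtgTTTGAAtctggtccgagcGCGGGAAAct
Kif18a (chr2:109280678-109280747, plus strand): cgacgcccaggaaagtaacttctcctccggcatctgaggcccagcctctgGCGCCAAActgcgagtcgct
Kif1c (chr11:70700488-70700557, plus strand): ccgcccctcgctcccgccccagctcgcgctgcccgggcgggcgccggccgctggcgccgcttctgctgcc
TTTGAA begins 3 bases after the start of Kif23 and of Cenpf and 18 bases before that of Ncapg2. On both strands of the whole RefSeq promoter window, which reaches further in both directions, 17.9% of 32851 promoters hold TTTGAA, 37.4% hold CCAAT, and 2.26% hold one of TTTCCCGC, TTTGGCGC, TTTCGCGC and TTTGCCGC. Of 27 members with an entry, TTTGAA is in 3 of 6 mitotic members and in 2 of 21 others (Kif1a and Tubb4b), CCAAT in 4 of 6 and 7 of 21, and an E2F-type site in 2 of 6 and 1 of 21 (Smc1a). The mitotic riser Cenpk holds only CCAAT, as does Cenpq. These are matches of letters and no measure of binding.

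Undivided activated cells had more RNA of mitotic genes and the main tubulins than naive cells. The labels give no culture time for naive cells, so activation and culture cannot be told apart here. In div0 against naive, 14 of the 29 tested members were higher and 7 lower, against a background of 15.4% of all genes higher and 39.6% lower. Of the mitotic members 6 of 7 were higher and Cenpq was lower, with a class median log2 fold change of 1.67, and of the 2 transport kinesins Kif5b was lower and Kif1c was not called. The median over all members was 0.12. Under median-ratio scaling 15 members were higher and 4 lower, and under quantile normalization 17 and 3. Both ended the lower calls of Cenpq, Tuba1a and Tubgcp6, and quantile normalization also that of Tubb3. Without either div0 library 13 were higher and 4 lower.

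Divided Phase I cells differed from naive in the same classes. In div12 against naive 15 members were higher and 9 lower, against 19.4% and 47.5% of all genes. The mitotic median was 2.35, again with 6 of 7 higher and Cenpq lower, and both transport kinesins were lower. The lower calls were the less firm: median-ratio scaling and quantile normalization each left those of Kif5b and Tubgcp6 alone, with 16 and 18 higher, and leaving out div12 replicate 2 left 3 or naive replicate 1 left 6. Both comparisons use the naive libraries.

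Few members differed between divided and undivided cells of Phase I. In div12 against div0 the condensin genes Ncapg2 and Smc4 and the cohesin gene Smc1a were higher and the gamma tubulin gene Tubg2 was lower, that is 3 and 1 of 29, against 3.68% and 5.08% of all genes. The mitotic median was 0.37, the transport median -0.24 and the all-gene median -0.07. The 3 higher calls were lost without any 1 of the div0 or div12 libraries, and without any 1 of the Phase II libraries 1 was left (Ncapg2). The call of Tubg2 was lost without div0 replicate 1, div0 replicate 2 or div12 replicate 2.

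In Phase II the members called for division included the tubulins. In div12_48_d against div12_48_u 15 members were higher and 2 lower, against 12.2% and 13.4% of all genes. The 15 were 5 mitotic genes (Kif23, Kif18a, Cenpf, Ncapg2, Smc4), 7 of 8 alpha and beta tubulins (6 of 7 without Tubb3, which passed the filter through groups where it is high), the cohesin genes Smc1a and Smc3, and Cenpv. Tubg2 and Tubgcp6 of the gamma tubulin complex were lower, and neither transport kinesin was called. The mitotic median was 0.92, the alpha and beta tubulin median 0.79, the transport median -0.15 and the all-gene median -0.08. The higher calls fell to 4 without div12_48_d replicate 1, 8 without div12_48_d replicate 2, and 7 without div12_48_u replicate 2, and were 10 without div12_48_u replicate 1; Ncapg2, Tuba1b, Tubb2a, Tubb2b and Tubg2 kept their calls under every alternative fit. The lower call of Tubgcp6 was lost without any 1 of the div0 or Phase II libraries. Beside these values, the 8 B cell markers summed to 38367 to 42884 TPM in div12_48_d, against 56310.3 to 59984 TPM in div12_48_u, and their part in the result was not tested. The T cell gene Lck had 422 and 445 TPM in div12_48_d, against 346 and 401 TPM in div12_48_u, while the 5 other T cell markers summed to 3.54 to 5.18 TPM in div12_48_d and 3.04 to 3.92 TPM in div12_48_u. The myeloid genes Adgre1 and Cd68 summed to 226 to 297 TPM in div12_48_d, against 158 to 171 TPM in div12_48_u, while the 10 other myeloid markers summed to 6.06 to 6.13 TPM in div12_48_d and 4.76 to 13.1 TPM in div12_48_u, with C1qa and S100a8 at 0 in both groups.

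**Figure D2:**
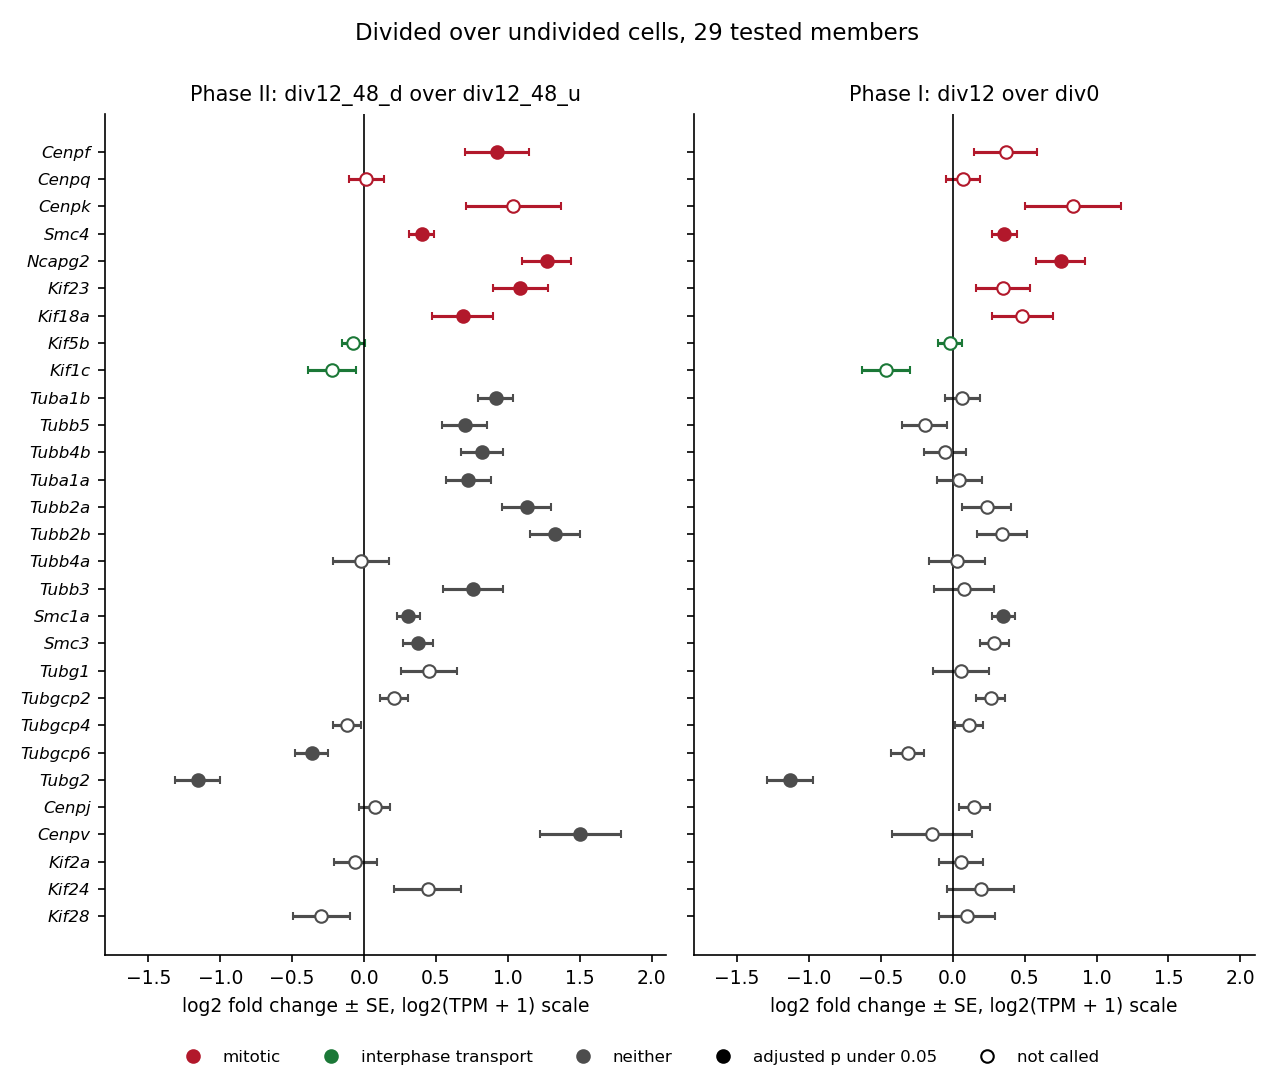
log2 fold change ± SE (horizontal axis, log2(TPM + 1) scale) of divided over undivided cells for the 29 tested members (rows), with div12_48_d over div12_48_u on the left and div12 over div0 on the right; filled points have an adjusted p under 0.05. No alpha or beta tubulin is called on the right, where their median is 0.06, and they lie at 0.70 or more on the left except Tubb4a. Tubg2 lies below -1.1 in both panels.

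The difference between the Phase II and the Phase I division effect was itself fitted as a contrast. It called 0 members and 0 of 4427 genes (0.00% in each direction), with 438 genes and 9 members at an unadjusted p under 0.05. The 9 were Cenpv, Kif23 and 7 tubulins (Tuba1a, Tuba1b, Tubb2a, Tubb2b, Tubb3, Tubb4b, Tubb5), and all 9 differences were above 0; without Tubb3 they were 8 members and 6 tubulins. The estimate was 1.65 ± 0.39 for Cenpv (adjusted p = 0.172) and 0.85 ± 0.17 for Tuba1b (adjusted p = 0.113). Other fits called 0 to 35 genes, 35 with the compared groups alone or without either naive library, and 0 or 1 members. A larger tubulin response in Phase II was therefore not called, although 7 tubulins, or 6 without Tubb3, were called in Phase II and 0 in Phase I.

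Undivided Phase II cells had less mitotic and tubulin RNA than div12. In div12_48_u against div12 3 members were higher (Tubb4a, Tubg2, Tubgcp6) and 17 lower, against 27.7% and 13.6% of all genes. The lower ones included 6 of 7 mitotic members, at a class median of -1.32 against 0.16 for all genes, and 6 of 8 alpha and beta tubulins, while neither transport kinesin was called. Median-ratio scaling gave 1 higher and 19 lower, and the higher calls were 1 without div12 replicate 2 or div12_48_u replicate 1. Over all genes, 67.0% of 1828 calls were higher without median-ratio scaling and 46.2% of 1768 with it. Against naive, div12_48_u had 9 members higher and 6 lower, against 15.2% and 27.2% of all genes. The mitotic median was then 1.06, with the same 6 members higher as in div0. Over all genes, 35.9% of 1880 calls against naive were higher, 51.7% of 1996 under median-ratio scaling and 59.9% of 2023 under quantile normalization. Median-ratio scaling gave 11 higher and 5 lower against naive, quantile normalization 13 and 4, both ended the lower call of Cenpq and quantile normalization that of Tubb3, and the fit without div12_48_u replicate 1 gave 5 and 4. Lck had 346 and 401 TPM in div12_48_u, against 137 and 151 TPM in div12 and 125 and 133 TPM in naive, and the 5 other T cell markers summed to 3.04 to 3.92 TPM in div12_48_u, against 1.86 to 1.89 TPM in div12 and 35.9 to 37.7 TPM in naive. The part of Lck in the result was not tested. Both sets of values share the div12_48_u libraries with the comparison of div12_48_d.

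Cells that divided again had fewer members called against div12. In div12_48_d against div12 2 members were higher (Cenpv and Tubg2) and 4 lower (Ncapg2, Smc1a, Cenpj and Tuba1b), against 11.9% and 4.09% of all genes. The mitotic median was -0.41 and the all-gene median 0.08. Median-ratio scaling gave 2 higher and 13 lower, and quantile normalization 1 and 8. Over all genes, 74.4% of 706 calls were higher without these scalings, 50.8% of 870 with median-ratio scaling and 51.2% of 746 with quantile normalization. The lower calls were 0 without div12 replicate 1 or div12_48_d replicate 2, 1 without div12_48_d replicate 1, and 2 without div12 replicate 2, div0 replicate 1 or div0 replicate 2, and the higher calls were 1 without div12_48_d replicate 2. Lck had 422 and 445 TPM in div12_48_d, against 137 and 151 TPM in div12, and Adgre1 and Cd68 summed to 226 to 297 TPM in div12_48_d, against 79.6 to 99.5 TPM in div12. The 10 other myeloid markers summed to 6.06 to 6.13 TPM in div12_48_d, against 10.8 to 24.1 TPM in div12. The part of these genes in the result was not tested.

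Kif23 encodes the motor of centralspindlin, which bundles the midzone microtubules and is needed for cytokinesis. Its levels were 27.6 and 22.1 TPM in naive, 133 and 166 TPM in div0, 203 and 179 TPM in div12, 73.2 and 50.8 TPM in div12_48_u, and 136 and 126 TPM in div12_48_d. No 2 of the groups naive, div12_48_u, div12_48_d and div12 overlapped, and div0 overlapped div12_48_d. The log2 fold change was 2.54 ± 0.19 in div0 against naive (adjusted p = 3.73e-05), 0.35 ± 0.19 in div12 against div0 (adjusted p = 0.272), and 1.09 ± 0.19 in div12_48_d against div12_48_u (adjusted p = 0.00578). The last call was lost without div12_48_d replicate 1. Undivided cells of Phase II were lower than div12 by a log2 fold change of -1.62 ± 0.19 and higher than naive by 1.27 ± 0.19. The ratio of Kif23 to Kif5b, both in TPM, was 0.139 and 0.118 in naive, 1.01 and 1.33 in div0, 1.59 and 1.42 in div12, 0.542 and 0.416 in div12_48_u, and 1.12 and 1.03 in div12_48_d.

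Kif18a encodes a kinesin that dampens chromosome movements at the metaphase plate. It had 11.1 and 7.18 TPM in naive, 27.97 and 33.8 TPM in div0, 48.5 and 38.9 TPM in div12, 21.5 and 18.2 TPM in div12_48_u, and 34.3 and 30.6 TPM in div12_48_d. The pattern is that of Kif23 at a lower level, with div0 and div12_48_d overlapping. The log2 fold change was 1.67 ± 0.21 in div0 against naive and 0.68 ± 0.21 in div12_48_d against div12_48_u (adjusted p = 0.0455), a call that was lost when any 1 cultured library was left out.

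Cenpf, a large protein of the outer kinetochore and the nuclear matrix that accumulates in G2, had the largest rise of all members in div0 against naive. Its levels were 7.90 and 8.12 TPM in naive, 48.4 and 63.5 TPM in div0, 81.1 and 63.6 TPM in div12, 28.4 and 18.1 TPM in div12_48_u, and 45.8 and 42.2 TPM in div12_48_d. The log2 fold change was 2.65 ± 0.22 in div0 and 3.02 ± 0.22 in div12 against naive (adjusted p = 6.02e-05 and 1.46e-05). Cenpf was 0.92 ± 0.22 higher in div12_48_d than in div12_48_u (adjusted p = 0.0186), a call that was lost without div12_48_u replicate 2 or either div12_48_d library.

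Cenpk and Cenpq both belong to the constitutive centromere-associated network, the inner kinetochore, and had different profiles over the groups. Cenpk had 15.7 and 7.53 TPM in naive, 30.3 and 36.0 TPM in div0, 55.3 and 64.6 TPM in div12, 28.9 and 18.8 TPM in div12_48_u, and 59.1 and 40.6 TPM in div12_48_d. The replicates of Cenpk lie far apart, and its difference of 1.04 ± 0.33 in div12_48_d against div12_48_u just missed the threshold (adjusted p = 0.0508). Cenpq lay between 34.4 and 38.0 TPM in all 8 cultured libraries, against 56.4 and 45.3 TPM in naive. Its log2 fold change of -0.52 ± 0.12 in div0 against naive was not called under median-ratio scaling or quantile normalization, and its differences in the comparisons among cultured groups were between -0.01 and 0.07.

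Ncapg2 encodes a subunit of condensin II, the complex that begins chromosome compaction in prophase, and Smc4 the ATPase subunit shared by condensin I and II. Ncapg2 had 11.5 and 11.4 TPM in naive, 53.5 and 64.5 TPM in div0, 104 and 95.0 TPM in div12, 31.1 and 22.1 TPM in div12_48_u, and 69.2 and 60.3 TPM in div12_48_d. Its groups were separate except for div0 and div12_48_d. It was called in all 7 group comparisons, with log2 fold changes of 2.26 ± 0.17 in div0 against naive, 0.75 ± 0.17 in div12 against div0 (adjusted p = 0.0365) and 1.27 ± 0.17 in div12_48_d against div12_48_u (adjusted p = 0.00219).

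Smc4 was more abundant, with smaller fold changes. It had 194 and 200.2 TPM in naive, 306 and 336 TPM in div0, 431 and 394 TPM in div12, 271 and 241 TPM in div12_48_u, and 333 and 342 TPM in div12_48_d. The libraries of div0 and div12_48_d again overlapped. Its log2 fold change was 0.70 ± 0.09 in div0 against naive, 0.36 ± 0.09 in div12 against div0 (adjusted p = 0.0449) and 0.40 ± 0.09 in div12_48_d against div12_48_u (adjusted p = 0.0145). The last call was lost without div12_48_u replicate 2 or either div12_48_d library.

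The cohesin ring has no mitotic label here because it also acts in interphase. Smc1a, 1 of its ATPase subunits, had 229 and 209 TPM in naive, 282 and 307 TPM in div0, 391 and 363 TPM in div12, 229 and 223 TPM in div12_48_u, and 285 and 275 TPM in div12_48_d. Undivided Phase II cells overlapped naive cells in Smc1a (log2 fold change 0.05 ± 0.08), and div12 stood above all others. Smc1a was higher by 0.31 ± 0.08 in div12_48_d against div12_48_u (adjusted p = 0.0272) and by 0.35 ± 0.08 in div12 against div0 (adjusted p = 0.0387). Smc3, its partner in the ring, ranged from 91.3 to 148 TPM over the 10 libraries and was 0.37 ± 0.10 higher in div12_48_d than in div12_48_u (adjusted p = 0.0298). The calls of Smc1a and of Smc3 in div12_48_d against div12_48_u were lost without any 1 of the Phase II libraries. Smc1b, the meiotic form, was under the filter, with at most 0.448 TPM in any library. Ncapg2, Smc4, Smc1a and Tubg2 were the 4 members called in both division comparisons, each in 1 direction. The share of all genes called in both was not counted, so no result is read from this number. The Phase I calls of these members were lost without single libraries, as given above.

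Kif5b, the ubiquitous heavy chain of kinesin-1, is a main motor of organelle transport. It had 198 and 188 TPM in naive, 132 and 125 TPM in div0, 128 and 126 TPM in div12, 135 and 122 TPM in div12_48_u, and 122 and 122 TPM in div12_48_d. Naive libraries lay above all others, and the cultured groups differed by 0.07 or less on the log2 scale in the 4 comparisons among them. The log2 fold change of div0 against naive was -0.58 ± 0.08 (adjusted p = 0.000649) and remained called under both scalings, at a smaller size. Kif1c, a kinesin-3 that moves vesicles towards the cell edge, had 51.0 and 55.0 TPM in naive, 50.3 and 55.4 TPM in div0, 45.5 and 31.7 TPM in div12, 49.9 and 46.5 TPM in div12_48_u, and 38.0 and 44.3 TPM in div12_48_d. Its difference of -0.47 ± 0.17 in div12 against naive (adjusted p = 0.0348) was lost under both scalings and without either naive library, either div0 library or div12 replicate 2. The neuronal transport kinesins Kif1a, Kif5a, Kif5c and Kif17 stayed under the filter, at no more than 0.830 TPM in any library.

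The tubulin genes made up most of the RNA of the members, with 2720 to 8446 TPM of alpha and beta tubulin per library. Gene pairs of this family are close in sequence, which limits what 50-base reads can tell apart where a stretch is shared. The first 50 coding bases of 2 pairs from GENCODE M21 transcripts are printed, with capitals for the bases that differ within a pair. These stretches differ at 3 bases for Tubb2a and Tubb2b and at 7 for Tubg1 and Tubg2, so they are not themselves shared. The shared stretches are counted after them.
Tubb2a: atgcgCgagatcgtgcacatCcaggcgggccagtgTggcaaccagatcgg
Tubb2b: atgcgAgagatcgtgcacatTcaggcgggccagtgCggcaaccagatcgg
Tubg1: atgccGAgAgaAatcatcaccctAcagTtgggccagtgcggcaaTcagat
Tubg2: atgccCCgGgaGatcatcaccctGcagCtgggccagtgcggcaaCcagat
Over the whole coding sequence Tubb2a and Tubb2b differ at 47 of 1338 bases, and Tubg1 and Tubg2 at 91 of 1356. Of all 50-base words of a transcript, 75.5% for Tuba1a and 83.1% for Tuba1b also occur in transcripts of other genes, as do 49.6% for Tubb2a, 39.3% for Tubb2b and 55.5% for Tubb4b. For Tubb5 the share is 0.115%, for Tubg1 14.1% and for Tubg2 14.3%, and Kif23, Kif18a, Ncapg2, Smc1a and Cenpv share none. How the deposited values divide shared reads is not given in the sources used here, so the levels of Tuba1a, Tuba1b, Tubb2a, Tubb2b and Tubb4b are uncertain.

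Tuba1b, the main alpha tubulin of proliferating cells, was the most abundant member. It had 1192 and 1187 TPM in naive, 3840.0 and 4631 TPM in div0, 4756 and 4102 TPM in div12, 1764 and 1509 TPM in div12_48_u, and 3238 and 2923 TPM in div12_48_d. The Phase I groups overlapped and stood above the divided Phase II cells, which stood above the undivided ones. Its log2 fold change was 1.83 ± 0.12 in div0 against naive, 0.07 ± 0.12 in div12 against div0, and 0.91 ± 0.12 in div12_48_d against div12_48_u (adjusted p = 2.35e-05, 0.779 and 0.00225).

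Tubb5, the main beta tubulin of lymphocytes, followed the same course with reads that are nearly all its own. It had 599.5 and 664 TPM in naive, 2220.0 and 2602 TPM in div0, 2436 and 1809.6 TPM in div12, 1088 and 881 TPM in div12_48_u, and 1592 and 1586 TPM in div12_48_d. Its log2 fold change was 1.93 ± 0.16 in div0 against naive, -0.19 ± 0.16 in div12 against div0 and 0.70 ± 0.16 in div12_48_d against div12_48_u (adjusted p = 5.31e-05, 0.465 and 0.0146). The call in Phase II was lost without div12_48_u replicate 2 or either div12_48_d library. Tubb4b, a beta tubulin also used in cilia, had 420.3 and 483 TPM in naive, 788 and 876 TPM in div0, 912 and 705 TPM in div12, 385 and 322 TPM in div12_48_u, and 654 and 592 TPM in div12_48_d. In div12_48_u against naive Tubb5 was higher by 0.63 ± 0.16 (adjusted p = 0.0122), and Tubb4b was at -0.35 ± 0.14 and was not called (adjusted p = 0.0786).

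The makeup of the tubulin RNA differed between the cultured groups and naive. The shares are of the 8 alpha and beta tubulin members alone, and Tuba1a and Tuba1b are the only alpha tubulins among them. Tuba1b made up 93.2% to 94.5% of this alpha tubulin TPM in the 8 cultured libraries, against 73.1% and 79.6% in naive. Tubb5 made up 69.0% to 73.8% of the beta tubulin TPM in the cultured libraries, against 53.8% and 54.0% in naive, while Tubb4b made up 24.8% to 28.4% in the cultured libraries, against 37.7% and 39.3% in naive. Cultured and naive libraries did not overlap in any of these shares, and the alpha share rests on the pair whose reads are hard to divide.

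Tuba1a, Tubb2a, Tubb2b and Tubb3, isotypes known from neurons, were called lower in div0 than in naive, where 39.6% of all genes were lower. The calls of Tuba1a and Tubb3 are the less firm, for reasons given below. Tubb2a had 56.5 and 44.5 TPM in naive, 28.2 and 28.5 TPM in div0, 37.1 and 30.3 TPM in div12, 13.0 and 10.7 TPM in div12_48_u, and 24.8 and 29.5 TPM in div12_48_d. Tubb2b had 32.7 and 29.5 TPM in naive, 14.5 and 16.5 TPM in div0, 21.1 and 18.8 TPM in div12, 9.20 and 13.3 TPM in div12_48_u, and 28.9 and 29.6 TPM in div12_48_d. Undivided Phase II cells were the lowest group for both, and divided Phase II cells had Tubb2b at about the naive level. In div12_48_d against div12_48_u Tubb2a was higher by 1.13 ± 0.17 and Tubb2b by 1.33 ± 0.17 (adjusted p = 0.00336 and 0.00202). Against naive, Tubb2a was lower by a log2 fold change of -0.80 ± 0.17 and Tubb2b by -0.96 ± 0.17 in div0, whereas in div12 the calls of both (-0.57 and -0.62) were lost under median-ratio scaling and quantile normalization. Tuba1a had 110.1 to 278 TPM in the cultured libraries, against 438 and 305 TPM in naive. Its call in div0 against naive (-0.49 ± 0.16) was lost under both scalings, and its rise of 0.73 ± 0.16 in div12_48_d against div12_48_u (adjusted p = 0.0121) was lost without div12_48_u replicate 2 or div12_48_d replicate 1.

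Tubb3 lay near the filter, at 1.48 and 1.63 TPM in naive, 0.397 to 0.781 TPM in the 6 libraries of div0, div12 and div12_48_u, and 1.17 and 1.89 TPM in div12_48_d. It entered the test through naive and div12_48_d, where it is high, so its calls follow in part from the filter. Without it the lower members against naive were 6 in div0, 8 in div12 and 5 in div12_48_u, and the higher members in div12_48_d against div12_48_u were 14. For Tubb3, quantile normalization turned the sign in div12 against naive to 0.063. Tubb4a had 8.13 and 6.76 TPM in div12_48_u, against 4.39 and 4.38 TPM in div12 (log2 fold change 0.64 ± 0.20, adjusted p = 0.0289). Against naive Tubb4a was not called, at -0.28 for div0, and its sign turned to 0.50 in div0 and 0.61 in div12 under quantile normalization.

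**Figure D3:**
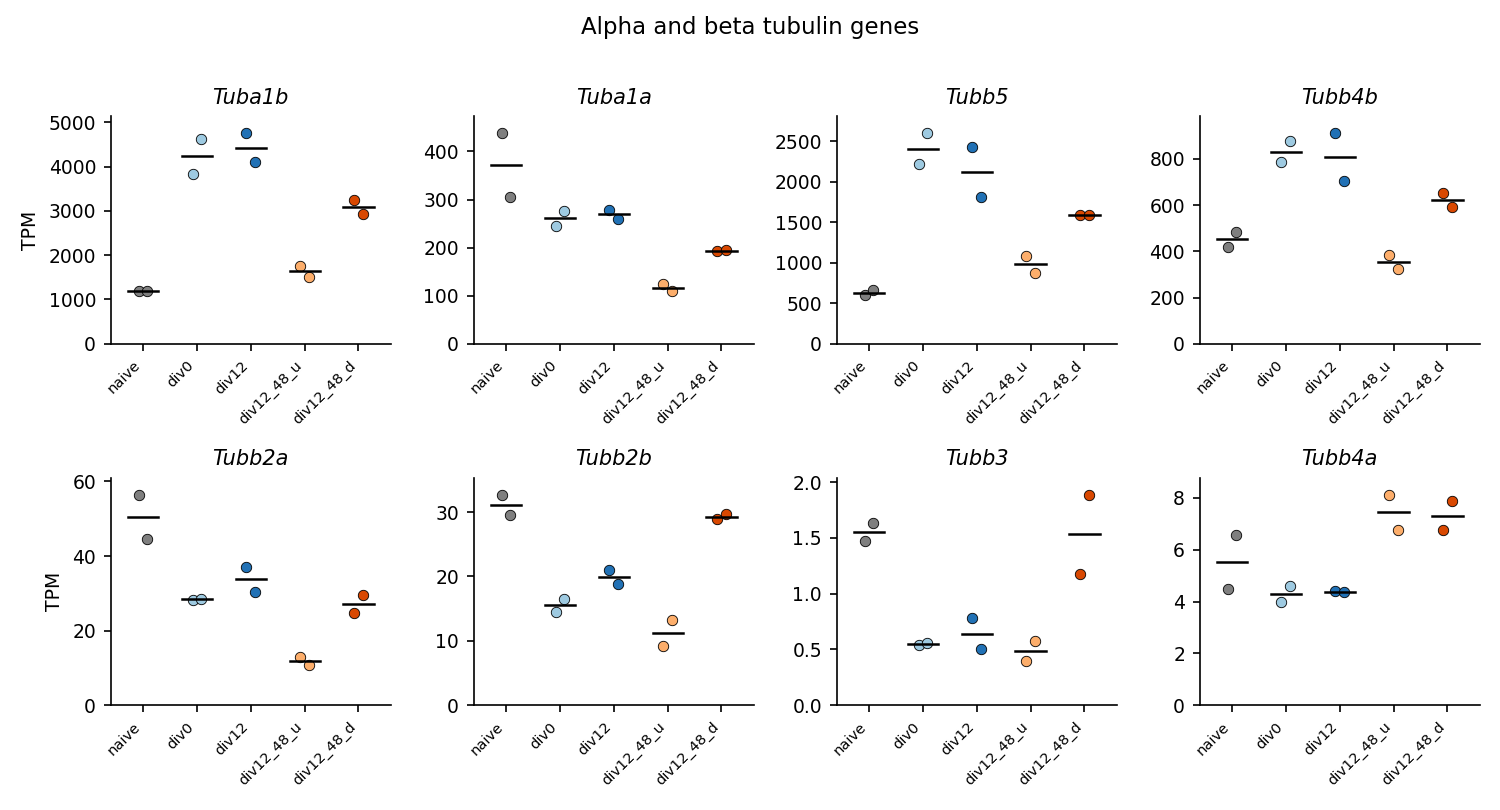
TPM (vertical axes, from 0) of the 8 alpha and beta tubulin genes in the 5 groups (horizontal axes); points are libraries and bars group means (n = 2). Tuba1b, Tubb5 and Tubb4b are higher in the Phase I groups than in naive, Tubb2a and Tubb2b are lower, and 7 of the 8 genes are higher in div12_48_d than in div12_48_u, the exception being Tubb4a.

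Gamma tubulin nucleates microtubules, and the mouse has a broadly used gene, Tubg1, and a close copy, Tubg2, known mainly from brain. They are neighbours on chromosome 11, at chr11:101119904-101126423 and chr11:101155874-101161787 (GRCm38.p6). Tubg2 had 11.04 and 10.1 TPM in naive, 17.5 and 17.6 TPM in div0, 7.01 and 7.96 TPM in div12, 30.1 and 37.8 TPM in div12_48_u, and 13.2 and 16.0 TPM in div12_48_d. No 2 of the 5 groups overlapped, with div12_48_u the highest and div12 the lowest. Tubg2 was lower in divided than in undivided cells of both phases, at -1.16 ± 0.16 in div12_48_d against div12_48_u (adjusted p = 0.00233) and -1.13 ± 0.16 in div12 against div0 (adjusted p = 0.0137). It was 2.04 ± 0.16 higher in div12_48_u than in div12 and 1.59 ± 0.16 higher than in naive, the highest rise of any member in either comparison. Its fall of -0.45 ± 0.16 in div12 against naive was lost under median-ratio scaling, and quantile normalization turned the sign to 0.17.

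Tubg1 had another order of levels, with 51.7 and 72.6 TPM in naive, 103 and 124 TPM in div0, 138 and 100.3 TPM in div12, 87.0 and 77.3 TPM in div12_48_u, and 112 and 113 TPM in div12_48_d. Tubg1 was 0.87 ± 0.19 higher in div0 than in naive (adjusted p = 0.00583) and was not called for division, at 0.45 ± 0.19 in Phase II and 0.06 ± 0.19 in Phase I. The ratio of Tubg1 to Tubg2 was 4.68 and 7.17 in naive, 5.91 and 7.04 in div0, 19.7 and 12.6 in div12, 2.89 and 2.05 in div12_48_u, and 8.46 and 7.05 in div12_48_d. It was highest in div12 and lowest in div12_48_u. Of the other ring proteins, Tubgcp6 had 54.9 and 59.8 TPM in div12_48_d, against 77.0 and 71.4 TPM in div12_48_u (-0.37 ± 0.11, adjusted p = 0.0472), Tubgcp2 was lower in div12_48_u than in div12 (-0.48 ± 0.10, adjusted p = 0.00593, and 0.30 with the most abundant transcript in place of the sum), and Tubgcp4 was called in no comparison. Tubgcp4 and Tubgcp6 overlap other genes, and 47.4% or more and 10.9% of their 50-base words are shared.

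Cenpv and Cenpj bear CENP names but are not kinetochore proteins of the constitutive network. Cenpv, needed for the midzone and cytokinesis in human cells, had 8.25 and 15.4 TPM in naive, 7.25 and 9.39 TPM in div0, 6.51 and 8.36 TPM in div12, 9.15 and 12.6 TPM in div12_48_u, and 33.1 and 31.6 TPM in div12_48_d. The divided Phase II libraries, at 31.6 TPM or more, stood above all others, at 15.4 TPM or less. Cenpv was higher in div12_48_d by 1.504 ± 0.28 on the log2 scale against div12_48_u (adjusted p = 0.00705) and 1.99 ± 0.28 against div12 (adjusted p = 0.00297), the largest rise of any member in both comparisons. The call against div12_48_u was lost without div12_48_u replicate 1 or div12_48_d replicate 1. Cenpj, a scaffold of centriole growth, ranged from 22.8 to 35.7 TPM and was 0.54 ± 0.11 higher in div12 than in naive.

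Of the other kinesins, Kif24, which removes microtubule ends at the mother centriole, had 16.2 and 20.0 TPM in div0, against 7.12 and 8.63 TPM in naive (1.10 ± 0.23, adjusted p = 0.00456). Kif28 stayed between 0.942 and 1.82 TPM and was called in no comparison. Kif2a, a kinesin that shortens microtubules at spindle poles and in neurites, was called in no comparison by gene sum, with 41.0 to 56.5 TPM over all libraries. Its transcripts, however, moved apart. NM_001145779 had 18.0 and 18.3 TPM in div0, against 6.83 and 5.52 TPM in naive, and NM_008442 had 28.6 and 26.5 TPM in div0, against 49.7 and 48.5 TPM in naive. A fit on 8165 transcripts, added after the gene results were seen, called the one higher (1.42 ± 0.34, adjusted p = 0.0141) and the other lower (-0.81 ± 0.16, adjusted p = 0.00572), where 9.05% of transcripts were higher and 25.0% lower. The share of Kif2a in NM_001145779 was 12.1% and 10.2% in naive, 38.7% and 40.9% in div0, 47.7% and 37.3% in div12, 21.7% and 14.4% in div12_48_u, and 37.1% and 25.1% in div12_48_d. Of the 50-base words of NM_001145779, 23.0% are shared with other genes, nearly all with the overlapping gene Dimt1.

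The makeup of Cenpk also differed between the groups. NM_021790 made up 45.5% and 30.3% of its TPM in naive, 71.7% and 74.7% in div0, 76.1% and 83.0% in div12, 56.4% and 49.7% in div12_48_u, and 80.2% and 70.3% in div12_48_d. Against naive, NM_021790 was at 2.28 ± 0.45 in div0 (adjusted p = 0.00657) and 3.23 ± 0.45 in div12 (adjusted p = 0.000761). NM_181061 was at 0.35 ± 0.25 in div0 and was not called, and was higher in div12 by 0.76 ± 0.25 (adjusted p = 0.0366), where 12.6% of transcripts were higher and 37.8% lower. The difference between the transcripts was not tested.

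**Figure D4:**
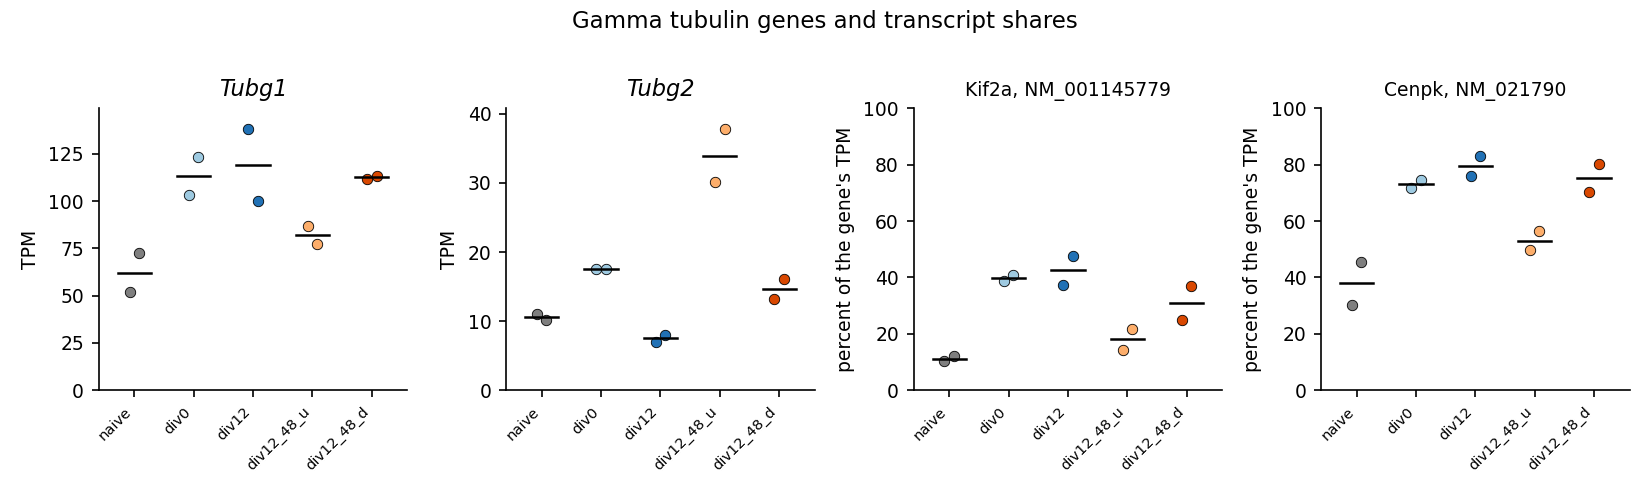
TPM of Tubg1 and Tubg2 (left, vertical axes from 0) and the percent of the TPM of Kif2a in NM_001145779 and of Cenpk in NM_021790 (right) in the 5 groups (horizontal axes); points are libraries and bars group means (n = 2). Tubg2 is highest in div12_48_u and lowest in div12, and both transcript shares are lowest in naive and next to lowest in div12_48_u.

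Partners of the members were listed by function, and the counts are to be read against 12.2% of all genes higher and 13.4% lower in div12_48_d against div12_48_u. Of 6 tested spindle microtubule proteins, 5 were higher in that comparison, with a median of 0.96, and 5 were higher in div0 than in naive, against 15.4% of all genes. Tpx2, which activates Aurora A on the spindle, had 134 and 116 TPM in div12_48_d, against 59.2 and 43.2 TPM in div12_48_u (1.29 ± 0.18), and Prc1, the midzone bundler that works with Kif23, had 131 and 118 TPM in div12_48_d, against 76.0 and 58.8 TPM in div12_48_u (0.89 ± 0.17). The call of Prc1 was lost without div12_48_d replicate 1 or div12_48_u replicate 2, and without div12_48_d replicate 1 the list had 2 higher.

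Of 14 genes of tubulin folding and modification, 7 were higher in div12_48_d than in div12_48_u, all of them subunits of the CCT chaperonin, which folds newly made tubulin and actin. Cct5 had 846 and 812 TPM in div12_48_d, against 637 and 623 TPM in div12_48_u (0.40 ± 0.07, adjusted p = 0.00508). The list had 1 higher without div12_48_d replicate 1 and 2 without either div12_48_u library, and Cct5 kept its call in each. Among 7 dynein, dynactin and cargo adaptor genes 0 were higher and 3 lower, with a median of -0.44. Dync1h1, the heavy chain of cytoplasmic dynein, had 143 and 179 TPM in div12_48_d, against 262 and 235 TPM in div12_48_u (-0.63 ± 0.18, adjusted p = 0.0386), a call that was lost without either div0 library, either div12_48_u library or div12_48_d replicate 1. Mapk8ip3, an adaptor between kinesin-1 and its cargo, was lower (-0.50 ± 0.08), and was the 1 gene of the list still lower without div12_48_d replicate 1 or div12_48_u replicate 2.

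The smaller lists held 1 to 4 tested genes. Knl1, the microtubule and checkpoint scaffold of the outer kinetochore and the 1 gene tested of its list, had 47.5 and 40.0 TPM in div12_48_d, against 31.7 and 21.5 TPM in div12_48_u (0.72 ± 0.21, adjusted p = 0.0396), a call that was lost without either div0 library, either div12_48_d library or div12_48_u replicate 2. Of 2 centromere loading genes Npm1, a histone chaperone, was higher (0.58 ± 0.07, adjusted p = 0.00133). Of 4 cohesin partners, Sgo2a, which protects centromeric cohesin, was higher (1.03 ± 0.18, adjusted p = 0.00595), a call lost without div12_48_d replicate 1, and Esco1, which acetylates cohesin, was lower (-0.35 ± 0.10, adjusted p = 0.0317), a call lost under both scalings and without any 1 Phase II library. The 1 tested SMC5/6 partner was not called in that comparison.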

How the data were processed

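Total RNA, 100 ng per library and depleted of ribosomal RNA, was sequenced as 50 bp single-end reads, per the labels' protocols. The authors deposited TPM for RefSeq transcripts on the build mm10. DESeq2, Salmon, HISAT2, HTSeq and featureCounts are named in the submitters' processing notes, and neither roles, versions nor strand use are given in those notes. Values exist for 13128 transcripts and add up to 1000000 TPM per library. No count can be recovered from TPM, so the depth is unknown and no counting interval is given. Leaving out 63 transcripts that lack a symbol, 13065 transcripts were added up by symbol to 6610 genes.

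All contrasts came from 1 fit of log2(TPM + 1) in limma 3.58.1 (R 4.3.3), over all 10 libraries and with no term besides group, using empirical Bayes with trend and 5 residual degrees of freedom, adjusted over 4427 genes. There were 8 contrasts. The fit was tested on simulated data. Alternatives changed 1 choice at a time: the pseudocount, the filter, the scaling, the compared groups alone, the most abundant transcript, the replicate number as a block, and each library left out, the lone library then being assumed to vary like the other groups. A transcript fit and crossed replicate numbers were added after seeing the data.

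Every member is named, and of each partner list up to 2 called genes, those with the highest mean TPM in div12_48_d against div12_48_u. Tubg2, Cenpv and the transcripts of Kif2a and Cenpk were described at length after their values were seen. The members and lists were chosen with earlier results of these data known. Sequences are from RefSeq (GRCm38.p6) and GENCODE M21; 50-base words of member transcripts were matched to all other GENCODE transcripts. Promoter sequences were printed for 5 members. Some sequences are not reported here. Python 3.11.15 was used with pandas 2.3.3 and numpy 2.4.6 for tables and with matplotlib 3.10.9 for figures.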

Additional observations from a re-analysis of the deposited data

Results flagged for a closer look

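Kif28 and Tubgcp4 were lower in divided than in undivided cells of Phase II and higher in divided than in undivided cells of Phase I, without overlap between the libraries in either phase. Kif28 had 1.59 and 0.942 TPM in div12_48_d, against 1.82 and 1.69 TPM in div12_48_u, and 1.63 and 1.38 TPM in div12, against 1.32 and 1.35 TPM in div0. Tubgcp4 had 69.4 and 66.3 TPM in div12_48_d, against 78.1 and 69.6 TPM in div12_48_u, and 76.7 and 76.4 TPM in div12, against 69.5 and 71.8 TPM in div0. The difference of the effects was -0.40 for Kif28 and -0.23 for Tubgcp4 on the log2(TPM + 1) scale, and limma did not call it for either gene (adjusted p = 0.754 and 0.696). Kif28 lies near the filter of 1 TPM. The share of all genes whose libraries separate in opposite directions in this way was not counted, so no result is read from these 2 genes.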

How the results depend on the processing

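Directions and calls were recomputed under every alternative. Of 107 calls of members in the 8 comparisons, 62 were kept under all alternatives and 45 were lost under at least 1. Shares of higher calls over all genes under the scalings are given above for the comparisons with naive and with div12. For div12 against div0, 42.0% of 388 calls over all genes were higher, against 63.8% of 519 under median-ratio scaling. Counts of members moved as follows. Against naive, the lower calls in div0 (7) became 4 under median-ratio scaling and 3 under quantile normalization, and those in div12 (9) became 2, 2 and, with the compared groups alone, 3. For div12 against div0 the higher calls (3) became 5 under median-ratio scaling and 0 with no filter or the most abundant transcript. For div12_48_d against div12_48_u the lower calls (2) became 1 with no filter or the most abundant transcript. For div12_48_u against div12 the higher calls (3) became 1 under median-ratio scaling. For div12_48_d against div12 the higher calls (2) became 1 under quantile normalization and 4 with the compared groups alone, and the lower calls (4) became 13 under median-ratio scaling, 8 under quantile normalization, 6 with the compared groups alone and 2 with the most abundant transcript. The difference of the division effects called 1 member with the compared groups alone. Over all genes, div12 against div0 had 388 calls, against 162 with no filter, 223 with the most abundant transcript, 247 with the replicate block and 677 with the compared groups alone. Leaving out 1 library also moved this number widely. In div12_48_u against naive there were 1880, against 1131 with the compared groups alone. The difference of effects had 0, against 2 to 23 under some alternatives that kept all libraries. It had 35 with the compared groups alone, a fit without the naive libraries. With 1 library left out the calls were as few as 335 of 1134 in div12_48_d against div12_48_u, 218 of 706 in div12_48_d against div12, 1212 of 1828 in div12_48_u against div12 and 1573 of 2431 in div0 against naive. The causes were not tested.

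Leaving out 1 library at a time gave 13 to 14 higher and 4 to 7 lower members in div0 against naive, 13 to 15 and 3 to 9 in div12 against naive, 0 to 4 and 0 to 1 in div12 against div0, 4 to 16 and 1 to 2 in div12_48_d against div12_48_u, 1 to 3 and 15 to 18 in div12_48_u against div12, 1 to 3 and 0 to 5 in div12_48_d against div12, 5 to 9 and 4 to 8 in div12_48_u against naive, and 0 to 1 and 0 to 0 for the difference.

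Some signs turned. Under quantile normalization Tubb4a was at 0.50 in div0 and 0.61 in div12 against naive, and Tubb3 at 0.063 and Tubg2 at 0.17 in div12 against naive. With the most abundant transcript Tubgcp2 was at -0.16 in div12 against naive and 0.30 in div12_48_u against div12, and Kif2a at 0.49 in div12_48_u against div12.

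Replicate numbers are shared by the groups, but deviations of same-numbered libraries correlated between -0.238 and 0.199 and so do not show pairing. With the replicate number as a block, div12 against div0 had 1 higher member, div12_48_d against div12_48_u had 1 lower, and div12_48_d against div12 had 2 lower. Over all genes these comparisons had 247, 1017 and 600 calls with the block, against 388, 1134 and 706 without it. Crossed replicate numbers as a block, added after seeing the data and fitted to the compared groups alone, gave 8 higher and 2 lower in div12 against div0 and 4 higher and 7 lower in div12_48_d against div12, where the compared groups alone without a block gave 4 and 1, and 4 and 6. The crossed block also raised the calls over all genes, from 677 to 1218 of 3975 in div12 against div0. In div12_48_d against div12 they went from 654 to 954 of 4045. Without counts, depth sets no stated limit, and with 2 libraries a group small differences cannot be called.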
